A study of Homo sapiens with 9 samples.

Results

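The mRNAs of the aminoacyl-tRNA synthetases and of their scaffold proteins were followed in eCLIP libraries of malate dehydrogenase 2 (MDH2), a mitochondrial enzyme of the tricarboxylic acid cycle. The set holds 38 genes chosen by name: 19 cytosolic synthetases, 16 mitochondrial synthetases (symbols ending in 2) and the scaffold genes AIMP1, AIMP2 and EEF1E1. Of these, 36 had exon windows in the deposited table, among 29166 identifiers with exon windows in all, of which 27819 were matched to a GENCODE v44 gene. VARS1 and VARS2 had no windows listed. They lie at chr6:31777518-31795752 and chr6:30914205-30926459 (GRCh38), in a stretch around the major histocompatibility complex where 11 of 178 protein-coding genes had exon windows listed, and they were not analyzed here. CARS1 was listed with 2, 0 and 3 counts in the MDH2 IP libraries, 0 in each SMI library and 0, 2 and 0 in the IgG IP libraries, too few to test. Only 3 windows of 1 exon were listed for it, though its annotated exons span 10.04 kb. The reason was not tested, and the counts are not read as a low level of its mRNA.

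All 9 libraries came from UV cross-linked Huh7 cells, a human hepatoma line, grown in the same medium with no further treatment named. The MDH2 IP group holds 3 libraries, the size-matched input (SMI, lysate taken from the same gel range without IP) 3, and the IP with isotype-matched IgG 3. Both IP groups went through 14 cycles of PCR and the input through 9, so that the number of cycles and the IP step cannot be told apart. Nothing in the labels says that replicates came from separate cultures, so p-values measure the spread between these libraries, which may be technical.

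The depth, as counts summed over the exon windows of all genes, ran from 3249974 to 5078220 per MDH2 IP library, from 3651665 to 4657949 per SMI library and from 506441 to 1134432 per IgG IP library. The synthetase and scaffold genes held between 0.232% and 0.539% of them. Levels below are in CPM, exon counts scaled to library size and TMM-normalized, which are relative to the library and do not measure how much RNA an IP recovered. They also cannot tell fewer transcripts from fewer cross-links per transcript. The 8 liver and hepatoma markers (ALB, AFP, APOA1 and others) summed to between 5676 and 12996 CPM. Leukocyte markers summed to at most 17.5 CPM, endothelial markers to at most 10.1 and fibroblast markers to at most 7.99, with no exon windows listed for DCN.

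Aminoacyl-tRNA synthetases attach each amino acid to its own tRNAs before translation. The cytosolic and the mitochondrial sets are encoded by nuclear genes, mostly by separate ones, although KARS1 and GARS1 supply both compartments. Several cytosolic enzymes assemble with AIMP1, AIMP2 and EEF1E1 into the multisynthetase complex, of which 10 members are in the set. Many cytosolic synthetase genes are targets of ATF4, a transcription factor that is induced when amino acids are short or charged tRNA is low and that binds composite C/EBP-ATF elements.

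The core of such an element, TTGCATCA, was searched on both strands in the RefSeq promoters (GRCh38.p14, 250 bases before to 50 after each start). The search was chosen after many cytosolic members and a list of ATF4 targets had been seen low in the libraries numbered 3, as described further on. It tests no cause of that difference. Promoters were matched for 33 of the 38 genes, all but AARS2, LARS1, VARS1, VARS2 and YARS1. The 8 letters occurred in AARS1, CARS1, IARS1, MARS1, NARS1 and TARS1, which is 6 of 16 cytosolic synthetases (37.5%), against 0 of 14 mitochondrial ones, 0 of 3 scaffold genes and 1.08% of all 27305 genes with a promoter. Per promoter the share was 0.866% of 35116. A looser form, TGATGNAA, overlaps the first on the opposite strand. It added GARS1 and the mitochondrial YARS2, and it occurred in 4.46% of all genes. Promoters were matched for 13 genes of the ATF4 list described further on. Of these, 1 (7.69%, CHAC1) held TTGCATCA and 3 (23.1%) the looser form. The stretches around the match are shown for the members with counts to follow, in the direction of transcription, with the matched letters in capitals.
AARS1, chr16:70289660-70289719, minus strand: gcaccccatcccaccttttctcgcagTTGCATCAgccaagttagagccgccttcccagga
IARS1, chr9:92293677-92293736, minus strand: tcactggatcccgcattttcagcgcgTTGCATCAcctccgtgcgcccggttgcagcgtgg
MARS1, chr12:57488038-57488097, plus strand: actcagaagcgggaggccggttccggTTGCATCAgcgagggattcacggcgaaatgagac
TARS1, chr5:33440935-33440994, plus strand: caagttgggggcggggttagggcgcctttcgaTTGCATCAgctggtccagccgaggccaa
NARS1, chr18:57621807-57621866, minus strand: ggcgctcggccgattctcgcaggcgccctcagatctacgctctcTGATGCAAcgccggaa
GARS1, chr7:30594819-30594878, plus strand: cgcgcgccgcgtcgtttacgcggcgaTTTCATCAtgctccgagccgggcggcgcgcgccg
The match began 187 bases before the RefSeq start in AARS1, 33 before it in GARS1, 13 before it in IARS1 and 4 before it in MARS1. In TARS1 and NARS1 it began at transcribed bases 3 and 15. NARS1 carries TTGCATCA on the strand opposite to the one printed, and GARS1, which holds the looser form alone, carries it there too. A match of letters is no evidence of binding, and no factor was measured here.

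The SMI libraries give the level of RNA from each gene in the cross-linked, size-matched input without IP, which is not the amount of the mRNA in the cell. Per kilobase of annotated exon (GENCODE v44, all isoforms), AARS1, the cytosolic alanyl-tRNA synthetase, had the highest mean SMI level with 44.8 CPM per kb. It was followed by MARS1 (methionyl, 43.0), NARS1 (asparaginyl, 39.8), KARS1 (lysyl, 34.6), QARS1 (glutaminyl, 34.1) and EPRS1 (glutamyl-prolyl, 34.0). Among mitochondrial synthetases IARS2 (isoleucyl) was highest with 24.4 CPM per kb and SARS2 (seryl) next with 15.2. NARS2 and FARS2, with 1.57 each, were lowest of the 35 tested genes. The cytosolic synthetases summed to 2911, 3466 and 2108 CPM in SMI replicates 1, 2 and 3, the mitochondrial ones to 598, 505 and 564, and the scaffold genes to 92.5, 87.3 and 99.2. From AARS1 to QARS1, the SMI libraries of each gene overlapped those of the next in this order. The order depends on the annotated length, which can exceed the part counted: IARS1 has 22.42 kb of annotated exon and 309 listed windows. Without division by length, IARS1 (310 CPM), GARS1 (243) and YARS1 (186) had higher mean SMI levels than NARS1 (163), QARS1 (160) and KARS1 (140).

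**Figure D1:**
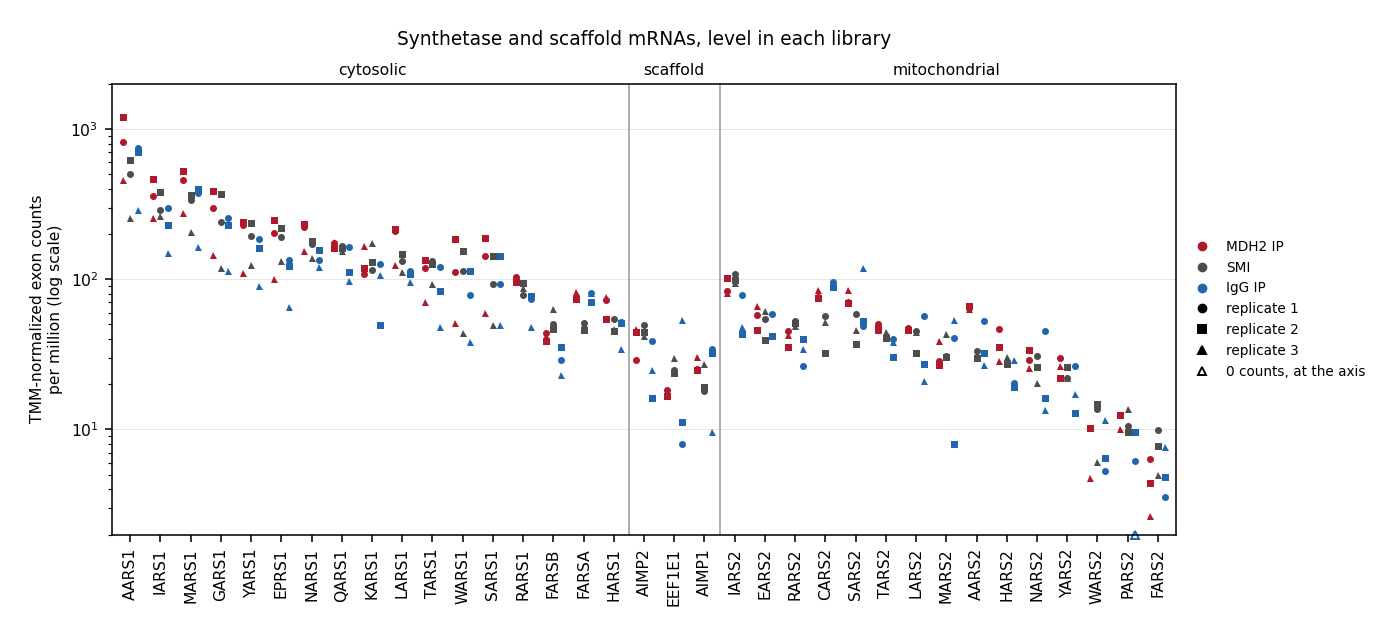
Level of each of the 35 tested mRNAs in each library, in CPM on a log axis, with colors for the group, symbols for the replicate and genes ordered by mean SMI level within each class. Triangles (replicate 3) are below the other symbols of their group in all 3 groups for 11 cytosolic genes, AARS1 at 454, 256 and 290 CPM among them, and for NARS2 alone of the mitochondrial genes. The open triangle is PARS2 in IgG IP replicate 3, with 0 counts.

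Before the comparisons between groups, one feature of the libraries has to be stated, because it touches most cytosolic members. The libraries numbered 3 stood apart in the same direction in all 3 groups. AARS1 was at 818 and 1209 CPM in MDH2 IP replicates 1 and 2 but at 454 in replicate 3, at 501 and 620 against 256 in SMI, and at 750 and 704 against 290 in IgG IP. Library 3 was the lowest of its group each time. On the log2 scale, with 0.5 CPM added, library 3 minus the mean of libraries 1 and 2 was −1.16, −1.13 and −1.33 for AARS1 in MDH2 IP, SMI and IgG IP.

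WARS1, the tryptophanyl-tRNA synthetase, showed −1.53, −1.60 and −1.32 by the same measure. SARS1 (seryl) showed −1.46, −1.24 and −1.23, and GARS1 (glycyl) −1.22, −1.36 and −1.10. EPRS1, MARS1 and YARS1 (tyrosyl) were the others at or below −0.5 in every group. These 7 were all cytosolic. They make up 41.2% of the 17 cytosolic synthetases with a mean of at least 100 counts, against 4.72% of all 6266 genes with such counts (296 genes). None of the 8 mitochondrial synthetases with such counts was among them, and their medians were 0.04, 0.05 and −0.12 in MDH2 IP, SMI and IgG IP.

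Not every cytosolic synthetase took part. KARS1 was higher in library 3 in each group, by 0.54, 0.50 and 0.29. FARSA (phenylalanyl, alpha subunit) was at 0.14, 0.04 and 0.09. The median of the 17 cytosolic genes was −0.76 in the MDH2 IP group, −0.35 in the SMI group and −0.82 in the IgG IP group, where that of all genes was 0.02, 0.04 and −0.03.

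The list of ATF4 targets moved further in the same direction: 15 of its 16 genes were at or below −0.5 in all 3 groups, with medians of −1.37, −1.48 and −1.76. ASNS, the asparagine synthetase, was at 171, 245 and 18.9 CPM in the MDH2 IP libraries, at 149, 228 and 24.5 in SMI, and at 134, 119 and 0 in IgG IP. SESN2, a stress-induced inhibitor of mTORC1 signaling, was at 127, 156 and 25.2 CPM in SMI. ASNS and SESN2 are named as examples with their values known. Of the 7 synthetases, a promoter was matched for 6, of which AARS1 and MARS1 held TTGCATCA and GARS1 the looser form. IARS1, NARS1 and TARS1, which hold it too, were below 0 in every group, between −0.28 and −1.08. These are descriptions over single libraries with no test, and the cause of the difference was not tested.

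**Figure D2:**
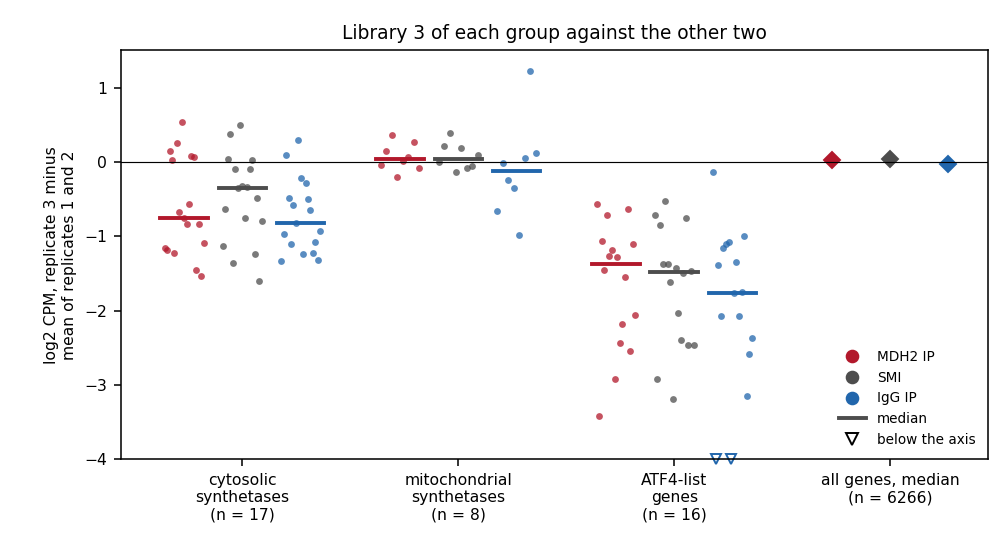
Each point is 1 gene, plotted as log2 CPM of replicate 3 minus the mean of replicates 1 and 2, in MDH2 IP, SMI and IgG IP, with the median of each list as a bar and the median of all 6266 genes as diamonds. Open triangles mark ASNS and CHAC1, which had 0 counts in IgG IP replicate 3. The cytosolic synthetases and the ATF4 list lie mostly below 0 in each group, and the mitochondrial synthetases lie around 0 in MDH2 IP and SMI.

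The comparison of MDH2 IP with SMI asks which mRNAs were cross-linked in the MDH2 IP beyond their share in the input. By exon sums and edgeR's quasi-likelihood test, 4 of 35 genes passed a Benjamini-Hochberg adjusted p of 0.05 over all genes with more in MDH2 IP, and 0 passed with less. Over all 13923 genes, 8.6% were called higher and 10.7% lower, so 4 of 35 was near the background share. In the lower direction EEF1E1 had an unadjusted p under 0.05, and the DESeq2 Wald test called 4 higher and 0 lower. The median log2 fold change was 0.13 over the members and 0.00 over all genes. It was 0.18 for the cytosolic, 0.12 for the mitochondrial and −0.23 for the scaffold genes. Each group of libraries enters 2 of the 3 comparisons that follow, so these are not independent of each other. Their main fits do not use the replicate number, so a shift shared by libraries of the same number stays in the error. With the number as a block, 10 members were called higher and 2 lower in MDH2 IP over SMI (2940 and 2875 of all genes). That fit is given in the closing section.

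AARS2, the mitochondrial alanyl-tRNA synthetase, had the largest difference of the called genes. Its gene is at chr6:44298731-44313347 on the minus strand. It was at 64.3, 66.1 and 63.6 CPM in MDH2 IP, at 33.3, 29.9 and 31.6 in SMI and at 53.1, 32.1 and 26.8 in IgG IP. Every MDH2 IP library was about as far above every SMI library, and the IgG IP libraries lay between the groups or near the SMI level. The log2 fold change over SMI was 1.00 ± 0.16 (SE, n = 3 per group, edgeR adjusted p = 0.00295). AARS2 was the only gene of the 4 called in every fit tried, with log2 fold changes between 0.96 and 1.28. FARSA lost its call without MDH2 IP replicate 1 or any single SMI library (edgeR adjusted p from 0.0505 to 0.0739), and CARS2 and SARS2 lost theirs whichever single library was left out (0.0632 to 0.109 and 0.0536 to 0.143).

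CARS2, the mitochondrial cysteinyl-tRNA synthetase (chr13:110641412-110713603, minus strand), was at 76.7, 75.4 and 84.6 CPM in MDH2 IP and at 56.6, 32.4 and 51.8 in SMI. The groups did not overlap, and the log2 fold change was 0.72 ± 0.21 (SE, n = 3 per group, edgeR adjusted p = 0.0405). The IgG IP libraries were at 96.4, 88.4 and 92.0 CPM, each above every MDH2 IP and every SMI library.

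SARS2, the mitochondrial seryl-tRNA synthetase (chr19:38915266-38930763, minus strand), was at 70.3, 69.6 and 84.3 CPM in MDH2 IP and at 58.3, 37.0 and 45.7 in SMI. Its log2 fold change was 0.64 ± 0.20 (SE, n = 3 per group, edgeR adjusted p = 0.0491). The IgG IP values were 48.6, 53.0 and 119 CPM, on both sides of the MDH2 IP values. One window of its exon 5 had the same 9 counts as a window of another identifier, so some of its counts may be shared.

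FARSA, the catalytic subunit of cytosolic phenylalanyl-tRNA synthetase (chr19:12922479-12934037, minus strand), was the only cytosolic gene called. It was at 75.4, 73.5 and 82.3 CPM in MDH2 IP, at 51.5, 46.0 and 50.2 in SMI and at 80.5, 70.7 and 80.5 in IgG IP. The MDH2 IP and IgG IP values overlapped, and both groups lay above every SMI library. The log2 fold change over SMI was 0.61 ± 0.15 (SE, n = 3 per group, edgeR adjusted p = 0.0206). Its partner subunit FARSB was below the SMI range in each MDH2 IP library, with 44, 38.8 and 42.0 CPM in MDH2 IP and 50.7, 46.4 and 63.1 in SMI, a log2 fold change of −0.39 ± 0.18 (SE) and an edgeR adjusted p of 0.150.

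AARS1 (chr16:70251983-70289707, minus strand) had the second largest log2 fold change over SMI, 0.81 ± 0.38 (SE, n = 3 per group), with an edgeR adjusted p of 0.161. Its MDH2 IP libraries (454 to 1209 CPM) overlapped its SMI libraries (256 to 620 CPM), since library 3 was low in both groups. Within each replicate number MDH2 IP was above SMI (818 and 501, 1209 and 620, 454 and 256 CPM), though the labels do not pair the numbers. A fit with the number as a block called AARS1 and further members, and it is given in the closing section. Without the libraries numbered 3, a fit added after these values had been seen, the log2 fold change was 0.80 ± 0.21 (SE) and the edgeR adjusted p 0.0242. In that fit 3 of 35 members were called higher, AARS1, LARS1 and AARS2, where 1142 of all 13218 genes were. FARSA, CARS2 and SARS2 had edgeR adjusted p values of 0.0516, 0.0611 and 0.141 in it. Single libraries moved the value both ways: the log2 fold change of AARS1 was 1.12 without MDH2 IP replicate 3 (edgeR adjusted p = 0.0425), 0.44 without replicate 2 of the same group (0.431) and 0.51 when SMI replicate 3 was left out (0.346).

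The remaining 4 mRNAs with the highest SMI levels per kb differed less. MARS1 (chr12:57475445-57517569, plus strand, overlapping DDIT3 on the other strand) was at 459, 528 and 275 CPM in MDH2 IP, at 336, 365 and 206 in SMI and at 373, 397 and 163 in IgG IP. All 3 ranges overlapped, and the log2 fold change over SMI was 0.44 ± 0.27 (SE, edgeR adjusted p = 0.286). NARS1 (chr18:57600656-57622213, minus strand) was at 223, 234 and 154 CPM in MDH2 IP, at 172, 179 and 138 in SMI and at 135, 157 and 121 in IgG IP, with a log2 fold change over SMI of 0.29 ± 0.19 (SE, edgeR adjusted p = 0.322).

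KARS1 (chr16:75627474-75648643, minus strand) was at 109, 119 and 166 CPM in MDH2 IP, at 116, 131 and 174 in SMI and at 126, 49.8 and 107 in IgG IP. Against SMI its log2 fold change was −0.13 ± 0.21 (SE, edgeR adjusted p = 0.712). QARS1 (chr3:49095932-49105130, minus strand) was at 173, 162 and 177 CPM in MDH2 IP, at 166, 162 and 153 in SMI and at 165, 112 and 97.8 in IgG IP, with 0.06 ± 0.13 (SE, edgeR adjusted p = 0.803). The direction of both genes turned under some other settings, as listed in the closing section.

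Of the other 26 genes tested, log2 fold changes over SMI ranged from −0.76 (FARS2, mitochondrial phenylalanyl) to 0.45 (LARS1, leucyl). HARS1 (histidyl, 0.44), whose gene overlaps that of HARS2 at their 5′ ends, RARS1 (arginyl, 0.20), LARS2 (0.18) and TARS2 (0.12) had every MDH2 IP library above every SMI library. Beside FARSB, RARS2 (−0.35) and the scaffold gene EEF1E1 (−0.62) had every MDH2 IP library below. In all, the libraries did not overlap with MDH2 IP higher for 8 of 35 members (22.9%) and with MDH2 IP lower for 3 (8.57%), against 19.9% and 18.9% of all genes tested.

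**Figure D3:**
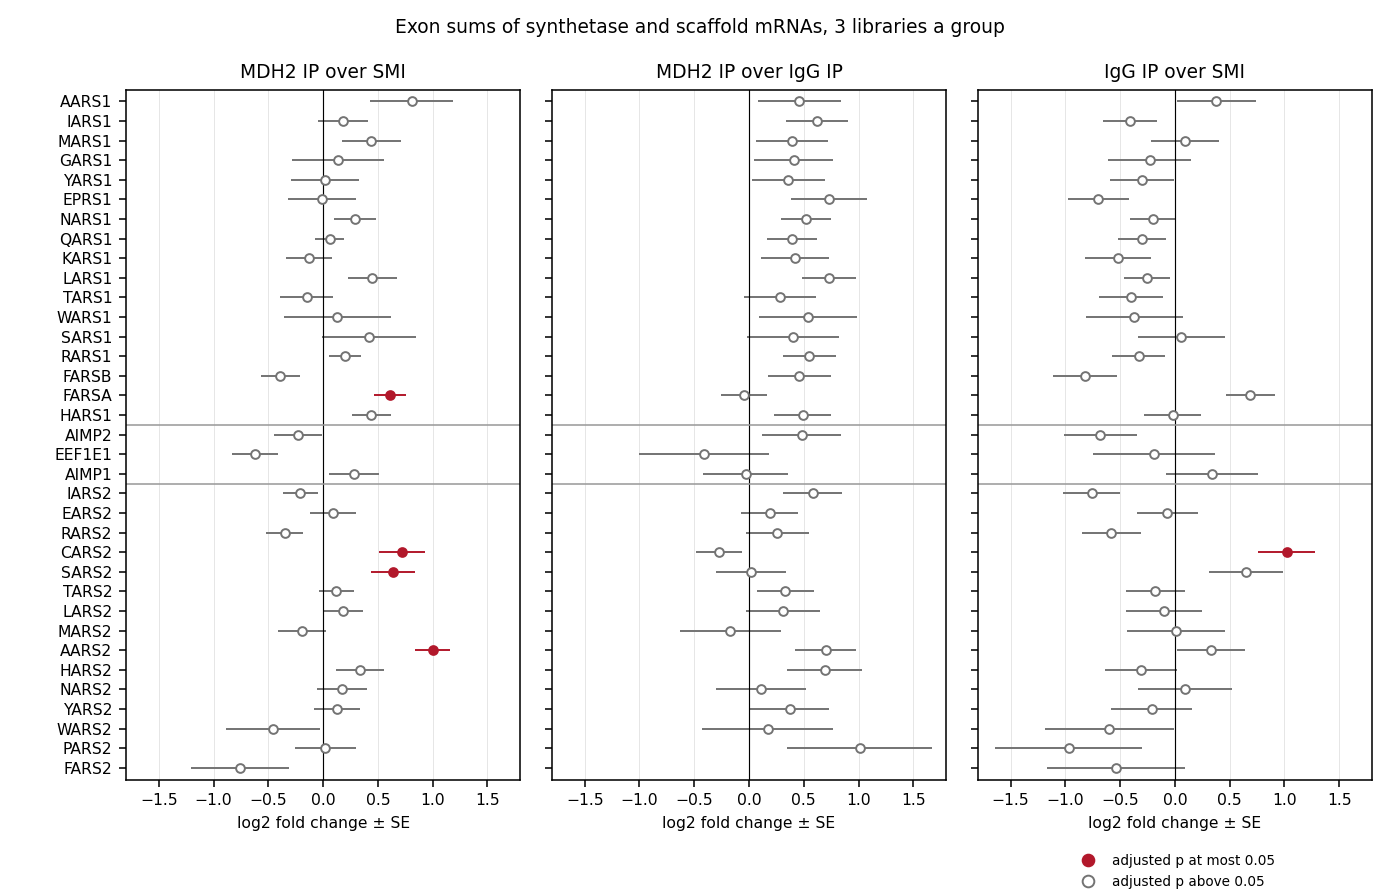
Log2 fold change with its SE for each gene in the 3 comparisons (3 libraries per group), with genes called at an edgeR adjusted p of at most 0.05 as filled red points. Over SMI, FARSA, CARS2, SARS2 and AARS2 are called in MDH2 IP and CARS2 in IgG IP, and 0 genes are called between the IPs.

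The 10 genes of the multisynthetase complex did not stand out in MDH2 IP over SMI. None was called in either direction by edgeR, EEF1E1 alone had an unadjusted p under 0.05, DESeq2 called 0, and their median log2 fold change was 0.12. LARS1 (0.45), MARS1 (0.44) and AIMP1 (0.28) were at one end of the range. AIMP2 was at 28.8, 44.7 and 46.5 CPM in MDH2 IP and at 49.8, 44.6 and 42.2 in SMI, a log2 fold change of −0.23 ± 0.22 (SE). EEF1E1 (chr6:8073360-8102559, minus strand) was at 18.4, 16.6 and 16.9 CPM in MDH2 IP and at 24.8, 23.7 and 29.7 in SMI, with an edgeR adjusted p of 0.0633.

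Set against the control IP, most mRNAs of the set had fold changes above 0, and none passed the test. Of 34 genes tested between MDH2 IP and IgG IP, edgeR called 0 in either direction, where it called 0.302% of all 12573 genes higher and 1.8% lower. Unadjusted p values were under 0.05 for 5 genes, each higher in MDH2 IP, and DESeq2 called 0. Of all 12573 genes, 1937 had an unadjusted p under 0.05 in either direction. The median log2 fold change was 0.40 over the members and 0.04 over all genes, and 29 of the 34 members were above 0 (85.3%) against 52.8% of all genes. The cytosolic synthetases had a median of 0.46, the mitochondrial ones 0.28 and the scaffold genes −0.03.

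LARS1 had the lowest edgeR adjusted p of the set in this comparison, 0.172, with a log2 fold change of 0.73 ± 0.25 (SE). It was at 208, 215 and 125 CPM in MDH2 IP and at 114, 109 and 95.9 in IgG IP. AARS2 followed with 0.70 ± 0.28 (SE, edgeR adjusted p = 0.258), and RARS1, NARS1 and IARS1 had 0.55, 0.52 and 0.62. AARS1 had 0.46 ± 0.38 (SE, edgeR adjusted p = 0.6). Of the genes called over SMI, FARSA (−0.05), SARS2 (0.02) and CARS2 (−0.27) had MDH2 IP levels close to or below those of the IgG IP. The IgG IP was the least deeply sequenced group. Data were simulated for each comparison without any shift between replicate numbers. In them, 47% of genes raised 2-fold were recovered for this comparison and 88% for MDH2 IP over SMI. The raised genes were drawn only from those above a set mean expected count, so these shares do not cover the weakest genes tested.

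The IgG IP was also compared with the SMI, to show which of these mRNAs the control IP itself held beyond the input. CARS2 was called higher, with a log2 fold change of 1.02 ± 0.26 (SE, n = 3 per group, edgeR adjusted p = 0.0203), and it was the only one of 35 genes. FARSA was near the threshold with 0.69 ± 0.22 (SE, edgeR adjusted p = 0.0547). No member was called lower by edgeR or DESeq2, and FARSB, IARS2 and EPRS1 were below 0 with an unadjusted p under 0.05. Over all 12788 genes 9.58% were called higher and 5.98% lower. The median was −0.23 over the members and −0.11 over all genes. Without the libraries numbered 3, 0 members were called, with an edgeR adjusted p of 0.0647 for CARS2. CARS2 also lost its call without any single SMI library or without IgG IP replicate 1 (0.0507 to 0.0908). IARS2 was called lower without IgG IP replicate 1, and EEF1E1 without IgG IP replicate 3, the library that held it at 53.7 CPM against 7.96 and 11.2 in the others.

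Summed over the class, the mitochondrial synthetases were at 659, 633 and 652 CPM in MDH2 IP, above each SMI library (505 to 598 CPM) and each IgG IP library (434 to 606 CPM). The means of these sums were 648 CPM in MDH2 IP and 556 in SMI. They include the called genes AARS2, CARS2 and SARS2, with means of 64.7, 78.9 and 74.7 CPM in MDH2 IP and 31.6, 47 and 47 in SMI. Of the 15 genes, 5 had a log2 fold change over SMI below 0, so the sum does not show a rise across the class. The cytosolic synthetases were at 3747, 4580 and 2451 CPM in MDH2 IP and overlapped both controls, at 2911, 3466 and 2108 in SMI and at 3060, 2854 and 1615 in IgG IP. Without AARS1, which had the highest mean SMI level of them, the cytosolic synthetases were at 2929, 3370 and 1997 CPM in MDH2 IP and at 2410, 2846 and 1852 in SMI. These sums are descriptions and were not tested.

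A larger share of the counts lay in exons in MDH2 IP than in the controls, in each class of the set. Of the exon and intron counts of the cytosolic synthetases together, 70.7% ± 2.47 (SD, n = 3) lay in exons in the MDH2 IP group, 55.9% ± 3.27 in the SMI group and 56.4% ± 4.27 in the IgG IP group. For the mitochondrial synthetases the exon share was 45.5% ± 5.01, 28.4% ± 2.06 and 25.3% ± 3.89. It was 52.3% ± 4.83, 33.8% ± 0.952 and 42.3% ± 4.28 for the scaffold genes. All protein-coding genes moved the same way, with 55.7% ± 3.23, 42.6% ± 2.75 and 33.5% ± 3.62. In the IgG IP the cytosolic synthetases stayed near their SMI share while that of all genes was below it, a description that was not tested.

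By gene, the MDH2 IP libraries all exceeded the SMI libraries in exon share for 24 of 33 members with a mean of at least 100 counts in both groups (72.7%), against 52.1% of 8867 protein-coding genes. For 0 members, and for 366 of all these genes, they were all below the SMI libraries. The median difference was 12.1 percentage points over the members and 7.85 over all these genes. GARS1 went from 47.3% ± 5.24 (SD, n = 3) in SMI to 65.9% ± 4.25 in MDH2 IP, and LARS1 from 43.4% ± 2.43 to 63.8% ± 1.42. QARS1 (88.8% and 90%) and KARS1 (80.1% and 80.6%), whose counts were mostly in exons already in SMI, overlapped between the groups. FARS2, a gene with long introns, had 2.16% of its SMI counts in exons and 2.47% of its MDH2 IP counts. With introns included in the sums, 6 of 36 members were called higher and 6 lower in MDH2 IP over SMI, where 2801 and 3061 of all 17057 genes were.

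**Figure D4:**
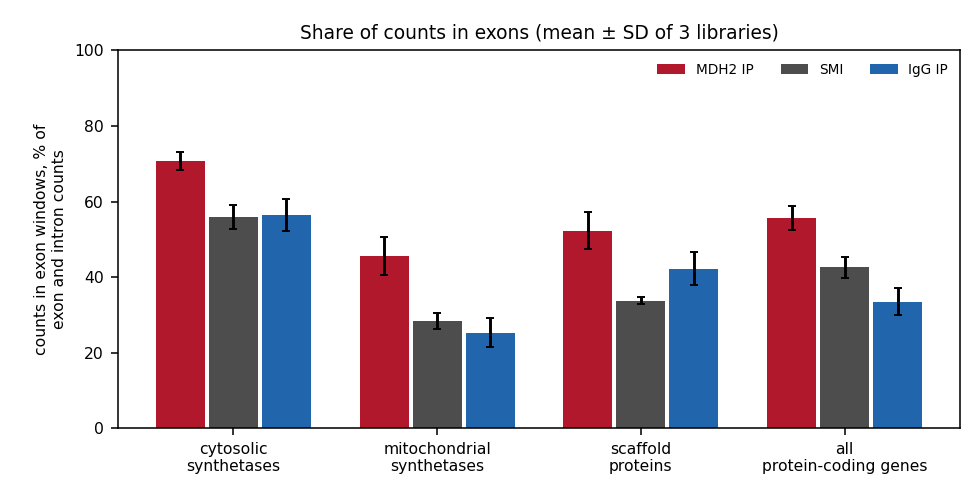
Share of exon and intron counts that lay in exon windows, as the mean of 3 libraries with the SD, for each class and for all protein-coding genes. MDH2 IP is highest in every class, with 70.7% for the cytosolic and 45.5% for the mitochondrial synthetases against 55.9% and 28.4% in SMI.

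Along the mRNA, first exons held more and last exons less of the exon counts in MDH2 IP, in the members as in other genes. Of 28 members with at least 3 listed exons and a mean of at least 100 exon counts in both groups, 11 had a first listed exon whose share was above the SMI range in each MDH2 IP library (39.3%), where 38.4% of 6225 protein-coding genes showed this. For 10, the last listed exon was below the SMI range in each (35.7%), against 35.6% of all these genes. The shares of members were thus near the background in both directions.

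GARS1 had one of the widest differences at the first exon, with 16.0%, 22.0% and 22.2% of its exon counts in MDH2 IP, 8.89%, 8.05% and 9.94% in SMI and 15.2%, 16.7% and 18.6% in IgG IP. Both IPs lay above every SMI library. IARS2 had 13.9%, 18.4% and 20.4% in MDH2 IP against 13.6%, 8.78% and 6.73% in SMI. Its IgG IP shares were 12.4%, 29.6% and 36%, from 89, 27 and 25 exon counts. In EARS2, the mitochondrial glutamyl-tRNA synthetase, the last exon held 49.8%, 56.6% and 56.4% in MDH2 IP and 64.1%, 63.4% and 66.4% in SMI. In IgG IP it held 68.2%, 69.2% and 77.3%. AARS1 differed from these, with 3.95%, 3.57% and 3.39% in its first exon in MDH2 IP and 3.92%, 3.04% and 3.5% in SMI, and with overlapping shares in its last exon.

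Single windows of 50 nt were tested in the same way. Between MDH2 IP and SMI, 391 windows of 14 members had enough counts, 137 of them in AARS1. To be called enriched, a window needed a log2 fold change of 1 or more and a one-sided adjusted p within 0.05. One of the 391 was, against 4.04% of all 51108 windows tested. It is window 25 in the last exon (exon 22) of AARS1, where the MDH2 IP libraries had 27, 40 and 17 counts, the SMI libraries 4, 13 and 3, and the IgG IP libraries 8, 1 and 0. Its log2 fold change was 1.89 ± 0.45 (SE, n = 3 per group, edgeR adjusted p = 0.0294), and against IgG IP 0.69 ± 0.61 (SE, edgeR adjusted p = 1). In 51 windows, 34 of them in AARS1, the log2 fold change reached 1, and the one-sided p before adjustment was under 0.05 in 100 of the 391. The share of all tested windows with such values was not taken, so these counts cannot be set against a background. Leaving out MDH2 IP replicate 3 raised the enriched windows to 17 of 374, of which 15 were in AARS1, where 887 of all 44435 windows were enriched. Leaving out SMI replicate 2 gave 2 of 243 (1240 of all 43367 windows), and leaving out any other single library gave 0.

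Fold changes above 0 were found along the whole AARS1 mRNA. Their median log2 fold change over SMI was 0.74 where that of all tested windows was 0.05, and 131 of the 137 were above 0. Windows that overlap or lie on the same mRNA share libraries and counts and are no replicates of each other. By exon, the ratio of mean CPM was between 0.39 (exon 16) and 1.54 (exon 20) on the log2 scale, and the last exon, with 30 listed windows, held 17.2% of the MDH2 IP, 16.5% of the SMI and 15% of the IgG IP counts. Exon 20 held 228, 225 and 93 MDH2 IP counts against 55, 79 and 40 SMI counts. Exon 18, with 8, 4 and 5 MDH2 IP counts and 0 from SMI, is left out of that range.

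**Figure D5:**
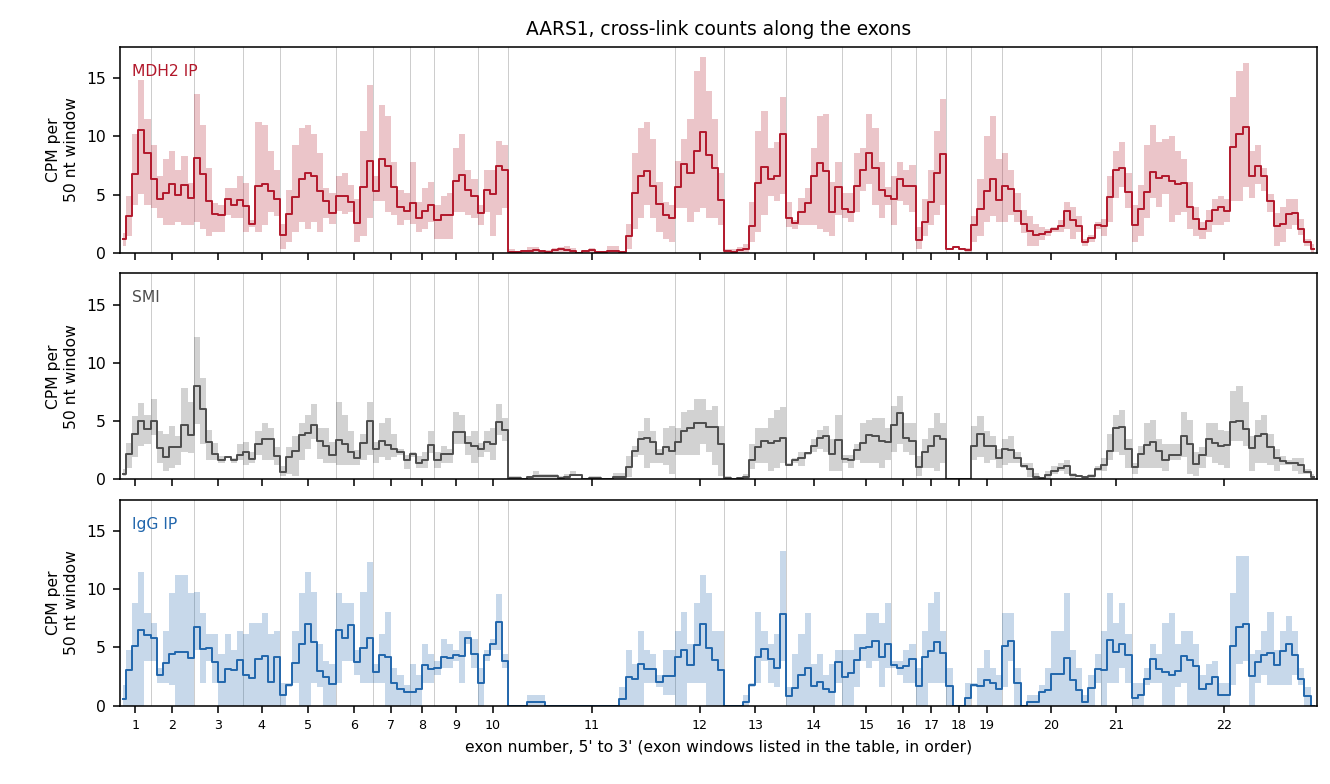
CPM in each listed exon window of AARS1, in order from the 5′ to the 3′ end, as the mean of 3 libraries (line) with their range (shaded), for MDH2 IP, SMI and IgG IP. Vertical lines separate the 22 exons. Counts are spread over the exons in each group, except exon 18 with 0 counts in SMI, and the last exon holds 17.2%, 16.5% and 15%. The MDH2 IP band is wide, between gene totals of 454 CPM in replicate 3 and 1209 in replicate 2.

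Other windows came near the threshold. In window 16 of GARS1 exon 1 the MDH2 IP libraries had 28, 36 and 13 counts, the SMI libraries 5, 10 and 11 and the IgG IP libraries 1, 0 and 1, with a log2 fold change over SMI of 1.38 ± 0.40 (SE, edgeR adjusted p = 0.0774). A window in exon 1 of IARS1, the isoleucyl-tRNA synthetase, held 18, 19 and 16 counts from the MDH2 IP and 5, 9 and 4 from the SMI, also with 1.38 (edgeR adjusted p = 0.0773). Against IgG IP, 0 of 117 member windows were enriched by edgeR, where 0.148% of all 30427 windows were. Before adjustment 18 of the 117 had a one-sided p under 0.05, again without a share over all windows to set it against. Of 73 member windows tested in IgG IP over SMI, 1 was enriched, against 6.14% of all windows. It is in exon 13 of AARS1, with 15, 4 and 2 counts in IgG IP, 11, 27 and 6 in SMI and 65, 55 and 17 in MDH2 IP.

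In the opposite direction, 5 overlapping windows in intron 5 of EEF1E1 were nearly absent from both IPs. In the middle one the SMI libraries had 34, 24 and 35 counts, the MDH2 IP libraries 4, 1 and 2, and the less deeply sequenced IgG IP libraries 0, a log2 fold change of −3.85 ± 0.47 (SE) for MDH2 IP over SMI. Over the 5 windows it ranged from −4.56 to −2.41. The one-sided test does not call windows that are lower. These were chosen after their values were seen.

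Genes that work beside the synthetases were read as lists. Of 9 genes for partners and editing of tRNA charging, 1 was higher in MDH2 IP over SMI and 0 were lower, with 1 at an unadjusted p under 0.05 and 1 called by DESeq2. It was AARSD1, an alanyl-tRNA editing protein, at 52.3, 46.9 and 55.6 CPM in MDH2 IP and at 33.3, 27.4 and 31.6 in SMI, with a log2 fold change of 0.71 ± 0.17 (SE, edgeR adjusted p = 0.0199). The IgG IP libraries were at 47.8, 57.9 and 44.1 CPM, overlapping the MDH2 IP. The median of the list was −0.31. Between the IPs 0 of 8 were called by edgeR or DESeq2, with 0 at an unadjusted p under 0.05, and in IgG IP over SMI 0 of 9, with 2 at an unadjusted p under 0.05.

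Of 13 tRNA maturation genes tested, 2 were higher in MDH2 IP over SMI, TRMT1, a tRNA guanosine dimethyltransferase (0.75 ± 0.19 SE, edgeR adjusted p = 0.0234), and ELAC2, the endonuclease that trims tRNA 3′ ends (0.58 ± 0.16 SE, edgeR adjusted p = 0.0359). TRMT1 was at 53.2, 49.8 and 68.1 CPM in MDH2 IP, at 33.9, 28.5 and 36.7 in SMI and at 45.1, 30.5 and 38.4 in IgG IP. The median of the list was 0.35, and 0 were lower. Against IgG IP, PUS1, a tRNA pseudouridine synthase, was lower in MDH2 IP by a log2 fold change of −1.15 ± 0.21 (SE, edgeR adjusted p = 0.0172), with 147, 196 and 178 CPM in the IgG IP and 87.8, 75.2 and 78.4 in MDH2 IP. PUS1 and TRMU, the latter named outside the rule after its values were seen, were higher in IgG IP than in SMI by 1.73 and 1.09 (edgeR adjusted p = 0.000522 and 0.0102). Of the 16 ATF4 targets, 0 were called in any comparison by edgeR or DESeq2, with 0 at an unadjusted p under 0.05 and medians of 0.27, 0.19 and 0.08 for MDH2 IP over SMI, MDH2 IP over IgG IP and IgG IP over SMI.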

How the data were processed

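The deposited table holds raw counts of cross-link sites in overlapping stretches of each gene (15767969 windows, each 50 nt long and starting 20 nt after the one before). To make these counts the authors removed PCR duplicates by their molecular identifiers, trimmed adapters with cutadapt, aligned the reads with STAR to GRCh38 with GENCODE v23 and added tRNA genes, keeping reads with up to 10 alignments, and counted the base upstream of each alignment start with htseq-clip. Whether counting used strand is not given in the sources used here. Since 1 site can fall in 3 windows, the sums exceed the number of sites, and counting error alone is larger than they make it look.

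Exon windows were summed per gene and named through GENCODE v44. A gene entered a test if 3 or more of the 6 libraries held 10 counts or more, and the tests were made with TMM and edgeR 4.0.16 (quasi-likelihood, two-sided) in R 4.3.3, with Benjamini-Hochberg adjustment over all genes. Windows were tested one-sided, with each p multiplied by the number of tested windows it overlaps before the adjustment. DESeq2 1.42.0 was an alternative, beside other scalings, count minimums, window choices, leaving out libraries and the replicate number as a block. Leaving out the libraries numbered 3 was chosen after seeing the data. Library 3 was set against libraries 1 and 2 as log2(CPM + 0.5). The members named in full were those called in a comparison and the 5 with the highest SMI level per kb. Genes of the other lists were named where MDH2 IP was called against either control. Further members, exons, windows and list genes were picked after their values were seen. The members and all gene lists were chosen with earlier results of these data known. In data simulated for MDH2 IP over SMI (13598 genes), the test recovered 88% of 2-fold and 100% of 4-fold increases, with 8 false calls. Genes with the lowest expected counts were not among those raised. The simulated counts held no shift between replicate numbers, and their dispersions came from a fit with the number as a block. They can thus overstate what the main test recovers where library 3 stood apart, as in many cytosolic members.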

Additional observations from a re-analysis of the deposited data

How the results depend on the processing

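Of the 9 genes named in full, 367 values under other settings kept their direction and their side of the threshold, 28 kept the direction and lost the call, 17 gained it and 20 turned sign, all of these in comparisons where the gene was not called. For MDH2 IP over SMI, leaving out single libraries gave 1 to 4 members higher and 0 lower (388 to 1055 and 652 to 1366 of all genes). With introns in the sums 6 members were lower. SARS2 lost its call with DESeq2 size factors (edgeR adjusted p = 0.0505), all 9 libraries in the fit (0.147) and 1 window in 3 (0.0573), and CARS2 with introns (0.074). AARS1 gained one with no count minimum (2.87e-05) and QARS1 with introns (0.0358). For MDH2 IP over IgG IP, 2 were higher with no count minimum (EPRS1 and LARS1, among 270 of all 26338 genes), 7 were higher and 1 lower with introns (719 and 1203 of 15492 genes), and 0 without any single library. For IgG IP over SMI, 2 members were higher with DESeq2 size factors, total counts as library size or the DESeq2 Wald test. A minimum of 50 counts and all 9 libraries in the fit also gave 2 (1121 to 1474 of all genes over these fits), the last with 2 lower. With no minimum 2 were lower (1306 of 25874 genes), with introns 3 were higher and 8 lower (2579 and 1789 of 15709 genes), without the libraries numbered 3 there were 0, and without single libraries 0 to 1 higher and 0 to 1 lower. Enriched member windows numbered 119 with total counts, where 12171 of all 51108 windows were called and the median over all windows rose from 0.05 to 0.62 (log2). They numbered 0 with the Wald test, 2 with a minimum of 5 counts (2179 of all 168338 windows) and 0 with IgG IP as the control. Without single libraries they numbered 0 to 17, where 284 to 1295 of all windows were called. Total counts moved the median log2 fold change of all genes from 0.00 to 0.17 for MDH2 IP over SMI. Beyond the settings that change which windows or libraries enter, the cause of these differences was not tested.

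The replicate block gave 10 members higher and 2 lower for MDH2 IP over SMI (2940 and 2875 of all 13923 genes). The calls gained were AARS1 (0.80 ± 0.09 SE, edgeR adjusted p = 9.52e-09), MARS1 (0.000245), NARS1 (0.0235), HARS1, LARS1 and SARS1 higher and FARSB and EEF1E1 lower. It gave 3 higher over IgG IP (350 of 12573 genes), 2 higher and 2 lower for IgG IP over SMI (1548 and 1252 of 12788), and 23 enriched windows, 18 of them in AARS1 (3777 of all 51108). The labels do not say what a number shares. The paper states that the SMI was set aside from the input before IP, but not which SMI and IP libraries share a lysate. Deviations of same-numbered MDH2 IP and SMI libraries correlated at 0.0754, 0.485 and 0.497 across 13978 genes. Those of MDH2 IP and IgG IP correlated at −0.0084, 0.222 and 0.258, and those of IgG IP and SMI at 0.0347, 0.229 and 0.253. Crossing numbers 2 and 3 between MDH2 IP and SMI gave −0.483 and −0.464. The block was kept out of the main fits because no label pairs the libraries and the values for number 1 were low. Low values for number 1 do not show that the libraries are unpaired. Every library correlated best with its own number between MDH2 IP and SMI and between IgG IP and SMI, a hint from the data. If libraries are paired by number, the fits without the block leave the shift they share in the error. Between the IPs, MDH2 IP replicate 1 correlated best with IgG IP replicate 2 (0.0471), and IgG IP replicate 1 with MDH2 IP replicate 2 (0.0603).

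Values that turned sign are log2 fold changes. KARS1 over SMI was 0.03 with total counts, 0.20 with introns, 0.01 when MDH2 IP replicate 1 was left out and 0.04 when SMI replicate 3 was (range without single libraries −0.32 to 0.04). QARS1 over SMI was −0.02 without the libraries numbered 3. FARSA over IgG IP was 0.01 with total counts, 0.09 with no minimum, 0.02 with 1 window in 3 and 0.35 with introns. SARS2 over IgG IP was −0.01 with the Wald test, −0.05 with a minimum of 50 counts and −0.01 with 1 window in 3, and without single libraries it ran from −0.24 to 0.51. In IgG IP over SMI, MARS1 was −0.05 with no minimum and ran from −0.18 to 0.39 without single libraries, and AARS2 ran from −0.03 to 0.51. The IgG IP depth limits what could be called against it.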
